A study of Mus musculus with 2 samples.

Results

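The alpha beta T cell receptor complex and its coreceptors were examined in activated regulatory T cells as 10 genes: the CD3 chains Cd3e, Cd3d, Cd3g and Cd247, the receptor constant genes Trac, Trbc1 and Trbc2, and the coreceptor genes Cd4, Cd8a and Cd8b1. The genes were chosen by symbol, and all 10 were found among the 55536 genes of the GENCODE M21 table, with 33 annotated transcripts. RNA with poly(A) tails came from 1 male mouse aged 4 months of the strain Foxp3CreERT2 x Rosa26YFP, in which a tamoxifen-inducible Cre is placed at Foxp3 and a yellow fluorescent protein at Rosa26. The labels trace these primary cells to a haematopoietic cell of the bone marrow, while tamoxifen treatment, sorting and the means of activation are not given in the sources. Both libraries are technical replicates of that 1 biological sample, library 1 and library 2, so there is 1 group and no second condition. Values are given for each library, and a mean ± SD covers 2 technical libraries and no spread between animals.

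A T cell recognises peptide bound to an MHC molecule through the variable parts of its receptor alpha and beta chains, which have almost no cytoplasmic tail. The CD3 epsilon, delta and gamma chains and the zeta chain (Cd247) assemble with them and carry the signal inward through tyrosine motifs, called ITAMs, that the kinase Lck phosphorylates and Zap70 then binds. The coreceptor CD4 binds MHC class II and CD8 binds MHC class I, and both CD4 and the CD8 alpha chain bring Lck to the receptor through a pair of cysteines. Regulatory T cells are mostly CD4 T cells and need their receptor for suppressive function.

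All coordinates are those of mm10. The 3 CD3 genes lie side by side on chromosome 9, Cd3g at chr9:44969572-44980431 on the minus strand, Cd3d at chr9:44981786-44987339 on the plus strand and Cd3e at chr9:44998740-45009627 on the minus strand. Cd247 lies at chr1:165788681-165877277 and Trac at chr14:54220521-54224206, both on the plus strand. Chromosome 6 holds Trbc1 at chr6:41538218-41539881, Trbc2 at chr6:41546730-41548352, Cd8b1 at chr6:71322788-71337494 and Cd8a at chr6:71373427-71379173 on the plus strand, and Cd4 at chr6:124864692-124888221 on the minus strand.

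The coding bases of the activation motifs are shown because the CD3 chains signal through these motifs, and because transcripts of 1 gene differ in how many they keep. They were read from the GENCODE M21 transcripts, and capitals mark the codons of the 2 tyrosines and of the leucine or isoleucine that follows each. Cd3e-201, Cd3d-201 and Cd3g-201 hold 1 motif each and Cd247-201 holds 3.
Cd3e-201: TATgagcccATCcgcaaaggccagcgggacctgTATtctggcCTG
Cd3d-201: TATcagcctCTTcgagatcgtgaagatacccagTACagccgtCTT
Cd3g-201: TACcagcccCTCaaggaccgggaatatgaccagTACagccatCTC
Cd247-201 motif 1: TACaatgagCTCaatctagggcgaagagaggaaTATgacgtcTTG
Cd247-201 motif 2: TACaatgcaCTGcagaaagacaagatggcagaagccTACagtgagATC
Cd247-201 motif 3: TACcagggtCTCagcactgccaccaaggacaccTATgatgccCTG
Each of these runs is interrupted by an intron in the genome. The Cd3e motif spans chr9:44999549-45000440, that of Cd3d chr9:44986095-44986311 and that of Cd3g chr9:44970735-44971268. The Cd247 motifs span chr1:165856451-165857454, chr1:165858473-165859260 and chr1:165859819-165861042. Cd247-202, an alternative coding transcript of Cd247, holds 2 motifs, and neither of the short coding transcripts Cd3d-202 and Cd3g-203 holds one.

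The cysteine pair through which a coreceptor tail holds Lck is shown for Cd4 and Cd8a, with the cysteine codons in capitals. It was found in Cd4-201 (chr6:124866269-124866629) and Cd8a-201 (chr6:71375893-71376866), and was not found in the coding parts of Cd8a-202 or Cd8b1-201.
Cd4-201: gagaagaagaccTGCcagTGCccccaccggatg
Cd8a-201: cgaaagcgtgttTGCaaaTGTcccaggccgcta

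Trbc1 and Trbc2 encode nearly the same beta constant region, and a rearranged beta chain uses one or the other. Over the 516 coding bases that Trbc1-202 and Trbc2-201 have in common, 23 bases differ (95.5% identity), and 4 of 172 codons encode another residue. The last 120 coding bases, which carry 19 of the differences, are shown with every differing base in capitals.
Trbc1-202: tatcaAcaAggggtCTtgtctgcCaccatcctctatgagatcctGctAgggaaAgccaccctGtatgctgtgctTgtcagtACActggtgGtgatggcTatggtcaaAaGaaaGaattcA
Trbc2-201: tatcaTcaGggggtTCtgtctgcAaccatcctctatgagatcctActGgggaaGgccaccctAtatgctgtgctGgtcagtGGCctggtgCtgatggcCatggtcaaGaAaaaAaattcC
These bases span chr6:41539234-41539662 for Trbc1 and chr6:41547777-41548178 for Trbc2, introns included. The reads were 50 bases long, and 283 of the 688 windows of that length in Trbc1-202 (41.1%) and 283 of the 643 in Trbc2-201 (44.0%) occur in both genes, so a read from such a window cannot be placed by its sequence alone.

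Estimated gene reads came to 15076048 in library 1 and 14635787 in library 2, of which the 10 genes made up 0.734% (library 1) and 0.748% (library 2). Of the markers of regulatory T cells, all 6 were at 10 TPM or more, from Foxp3 at 23.8 and 20.9 TPM in libraries 1 and 2 to Izumo1r at 734 and 859 TPM. TPM is an estimate of transcript abundance, scaled by length and to a fixed sum over each library. Markers of other cell types that could hold receptor or coreceptor genes are given by their sums with the leading gene by mean TPM. The 5 natural killer cell markers summed to 1.63 and 2.15 TPM, most of it Klrb1c, with Ncr1, Klre1 and Klra8 at 0 reads, and the 5 thymocyte markers summed to 0.87 and 0.49 TPM, led by Arpp21, with Rag2 at 0 reads. The 7 dendritic cell markers summed to 6.77 and 7.32 TPM, led by H2-Aa, with Itgax, Clec9a and Siglech at 0 reads, and the 6 monocyte and macrophage markers to 3.85 and 6.25 TPM, led by Cd68, with Cd14 at 0 reads. For Ncr1, a count of 0 allows up to 0.169 TPM in library 1 and 0.179 TPM in library 2, the level of 3 reads. The 7 B cell markers summed to 741 and 826 TPM, of which Ighm gave 679 and 760 TPM. Cd79b was at 36.3 and 40.7 TPM and Igkc at 23.9 and 22.6 TPM. Cd79a was at 1.26 and 1.7 TPM, Ms4a1 at 0.67 and 0.39 TPM and Pax5 at 0 and 0.08 TPM. The 4 mast cell and granulocyte markers summed to 0.35 and 0.5 TPM, led by Cpa3, with Mcpt8 and S100a9 at 0 reads, and the 5 gamma delta T cell markers to 22.96 and 26.4 TPM, led by Tcrg-C1, with Sox13 at 0 reads. The 5 cytotoxic T cell markers, which include Cd8a and Cd8b1, summed to 12.6 and 16.1 TPM, led by Cd8b1. What these cells or transcripts add to the levels below was not tested.

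The receptor constant genes were the most abundant of the 10. Trbc2, one of the beta constant genes, was at 3358 TPM in library 1 and 3416 TPM in library 2 (3387 ± 40.5, SD, n = 2 technical libraries), and ranked 32nd of all genes by mean TPM. Trac, the single alpha constant gene, was at 2729 and 2761 TPM (2745 ± 22.5) and Trbc1, the other beta constant gene, at 1810 and 1858 TPM (1834 ± 33.5). The libraries lay within 2.62% of each other for each of the 3 genes, and Trbc2 exceeded Trbc1 in both. Together the beta constant genes came to 5169 and 5274 TPM. These levels count reads on constant exons only, since the constant genes are annotated apart from the variable segments they are spliced to, and they do not show whether the joined variable part is productive.

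Beta constant transcripts outnumbered alpha constant transcripts. The ratio of Trbc1 plus Trbc2 over Trac was 1.89 in library 1 and 1.91 in library 2 (1.90 ± 0.0114, n = 2 technical libraries). With the estimated reads it ranged from 1.58 without length scaling to 2.09 per base of the gene's merged exons, with all annotated transcripts of the constant genes counted. In the whole-number table described below it was 1.45. There the 3 genes kept 4.56% of their estimated reads or less and 2 compressed genes were summed over 1, so that value does not measure the balance. Trbc1 over Trbc2 was 0.539 and 0.544 (0.541 ± 0.00341), so close to 1 Trbc1 transcript for every 2 of Trbc2, a split that rests on how the quantification assigned reads from the shared windows. The deposited posterior SD of that assignment was 99.2 of 13980 Trbc1 reads in library 1 and 94.99 of 13412 in library 2, and the same for Trbc2, with 26782 and 25705 reads. In the whole-number table Trbc1 over Trbc2 was higher, at 0.823 in library 1 and 0.850 in library 2. There Trbc1 kept 4.21% and 4.48% of its estimated reads and Trbc2 2.47% and 2.54%, so that value does not measure the split either.

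**Figure D1:**
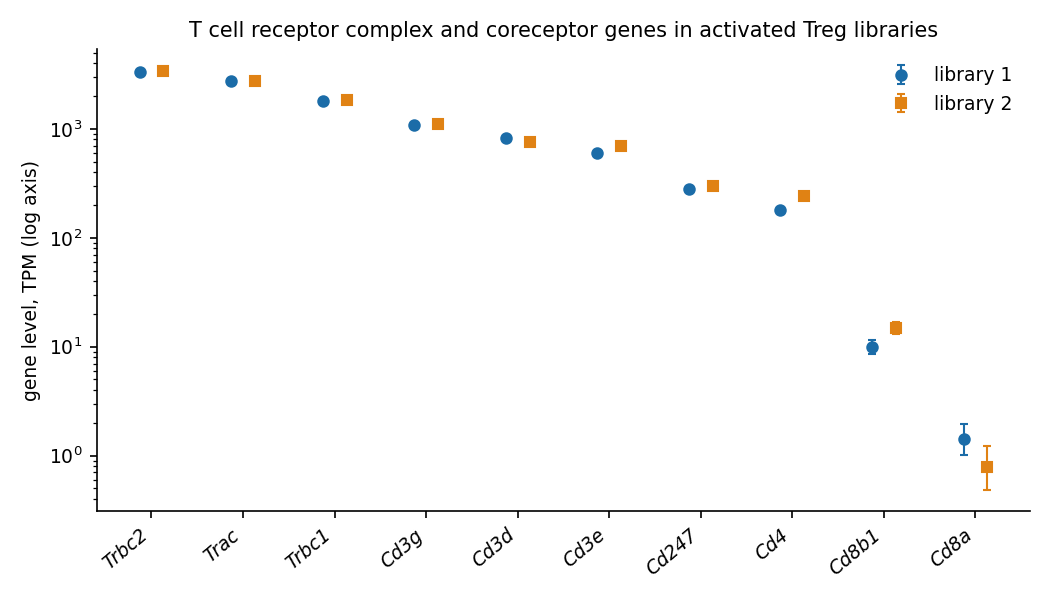
Level of each gene in TPM on a log axis, library 1 (circles) beside library 2 (squares), with exact 95% Poisson intervals of the estimated reads, which cover counting error only. Genes are ordered by mean TPM, from Trbc2 (3387) to Cd8a (1.11); 8 of 10 lie above 100 TPM, and Cd8b1 and Cd8a stand apart at the bottom.

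Among the CD3 chains Cd3g was the highest in TPM and Cd247 the lowest. Cd3d was above Cd3g per base of merged exons (823 against 604) and in the whole-number table (677 against 400.3 counts per exonic base, rescaled as TPM is). Both of these measures divide by merged exons, which count 3269 bases for Cd3g and 1815 for Cd3d. The effective lengths behind TPM were 917 and 925 bases for Cd3g and 957 and 998 for Cd3d in libraries 1 and 2. In estimated reads Cd3g was the higher, at 12300 and 12117 against 9706 and 8795. Cd3g, the gamma chain, was at 1082 TPM in library 1 and 1119 TPM in library 2 (1100 ± 26.8). Cd3d, the delta chain, was at 817 and 753 TPM (785 ± 45.5), and Cd3e, the epsilon chain that pairs with either of them, at 598 and 698 TPM (648 ± 70.8). Cd247, which encodes the zeta chain, was at 280 and 302 TPM (291 ± 15.6). The ranges of neighbouring genes over the libraries did not overlap anywhere in the order of the 10 genes, although the gap between Cd3d (lowest 753) and Cd3e (highest 698) was narrow beside the difference between libraries. All 10 genes held the same rank in library 1 and in library 2.

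Cd3g exceeded Cd3e under every way of counting tried, and Cd3d exceeded it under some. Cd3g over Cd3e was 1.81 in library 1 and 1.60 in library 2 (1.71 ± 0.145) and ranged over the alternatives from 1.12 with reads and no length scaling to 1.99 with coding transcripts only. Cd247 over Cd3e was 0.468 and 0.433 (0.450 ± 0.0252), with a range from 0.377 per base of merged exons to 0.538 in the whole-number table. Cd3d over Cd3e was 1.37 and 1.08 (1.22 ± 0.204), but 0.871 and 0.730 (0.800 ± 0.0997) when only transcripts with a complete coding sequence were summed. Without length scaling it was 0.851 ± 0.106, and per base of merged exons 1.91 ± 0.239.

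A large part of the Cd3d TPM came from 1 short annotated transcript. Cd3d-202, which is 286 bases long and annotated with an incomplete coding end, had 963 reads in library 1 and 663 in library 2, which was 9.92% and 7.54% of the reads of Cd3d. Because TPM divides by effective length, the same transcript had 327 and 239 TPM, which was 40.1% and 31.8% of the gene's TPM. The full-length Cd3d-201, of 1617 bases and with the ITAM shown above, had 8595 and 7885 reads and 442 and 430 TPM. The deposited posterior SD of the reads of Cd3d-202 was 60.1 and 62.3. Cd3d-203, a retained-intron transcript of 299 bases, took 5.86% and 11.2% of TPM from 149 and 246 reads, with a posterior SD of 47.6 and 53.0 reads.

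For the other CD3 chains the full-length coding transcript held most of both TPM and reads. Cd3g-201 held 86.6% and 87.3% of the gene's TPM, and Cd3g-203, 412 bases with an incomplete coding end, held 12.3% and 11.4%. Cd3e-201 held 84.9% and 84.4%, and its 3 retained-intron transcripts together 15.1% and 15.6%, or 1585 and 1598 reads. Cd247-201, the zeta transcript with 3 ITAMs, held 89.7% and 90.6%. Cd247-202, which encodes a different tail with 2 ITAMs, held 4.35% and 4.14%, or 192 and 186 reads with a posterior SD of 14.7 and 14.8. The remaining 7 Cd247 transcripts held less than 4% of TPM each.

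**Figure D2:**
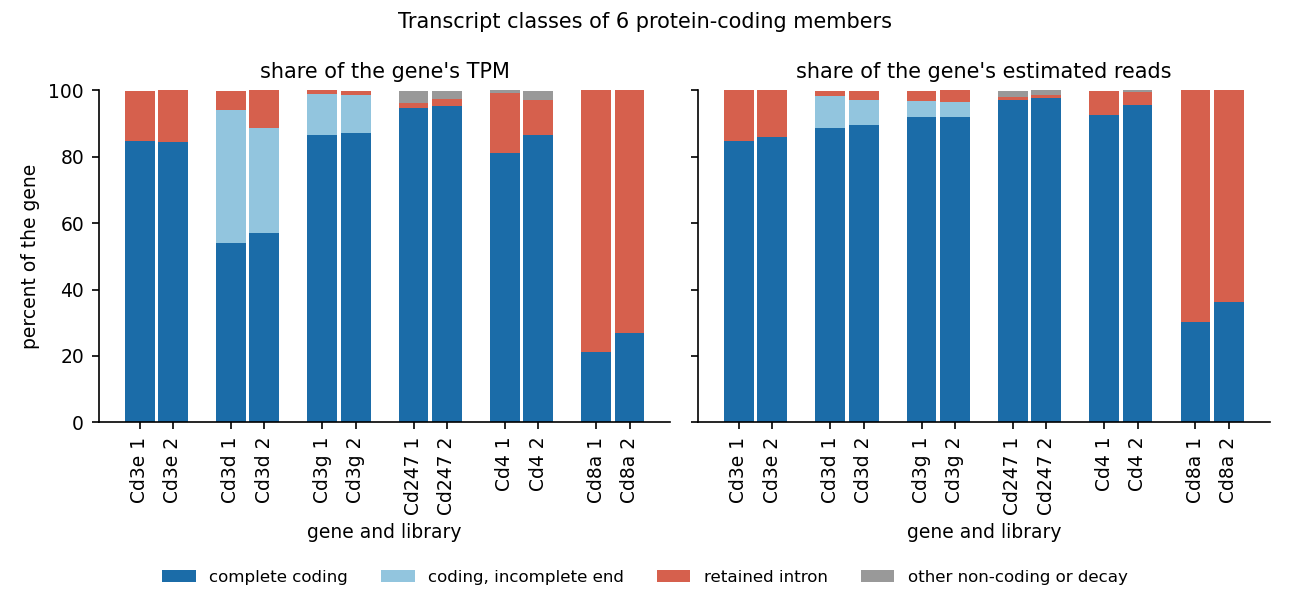
Share of each gene's TPM (left) and of its estimated reads (right) by transcript class, for 6 protein-coding members with several transcripts, library 1 beside library 2. The incomplete Cd3d transcript takes 40.1% and 31.8% of TPM but 9.92% and 7.54% of reads, and retained introns lead for Cd8a on both measures.

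The T cell receptor constant genes also had more than 1 transcript. Trac-202, of 935 bases, held 76.5% and 76.0% of Trac TPM and 88.8% and 88.5% of its reads, and Trac-201, of 413 bases, the rest. Trbc1-202 held 71.0% and 68.4% of Trbc1 TPM, and Trbc2 had 1 transcript. In all 8 genes with several transcripts the leading transcript did not change between libraries, by TPM or by reads.

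An assembled receptor is known to hold 2 copies of the epsilon chain and 2 of the zeta chain with 1 each of delta, gamma, alpha and beta. Divided by these copies, Cd247 was the lowest chain at 140 TPM in library 1 and 151 TPM in library 2 (146 ± 7.79). Cd3e followed at 299 and 349 TPM per copy (324 ± 35.4), then Cd3d at 785 ± 45.5, Cd3g at 1100 ± 26.8, Trac at 2745 ± 22.5 and the summed beta constant genes at 5221 ± 74.0. With complete coding transcripts only for the CD3 chains, Cd247 was at 138 ± 8.12, Cd3e at 274 ± 28.7, Cd3d at 436 ± 8.71 and Cd3g at 957 ± 29.3 TPM per copy. The order was then the same, but all transcripts of the constant genes were kept. Trac-202, Trbc1-202 and Trbc2-201 are annotated with an incomplete end, so the place of the constant genes was not put to this filter. Per base of merged exons, Cd3g (604 ± 19.9) fell below Cd3d (823 ± 21.5), and Cd247 was lowest at 81.6 ± 4.89. The merged exons of Cd247 are the longest of these chains, 5329 bases against effective lengths of 1529 and 1538. Its place under this scaling therefore also reflects that length. Per-copy values are proportions of RNA, and chain protein was not measured.

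Trac exceeded Cd3e 4.56-fold in library 1 and 3.95-fold in library 2 (4.26 ± 0.430). Ratios ranged from 2.32 with unscaled reads to 10.1 per base of merged exons, so the direction was the same throughout and the size moved with the length used. The merged exons of Cd3e count 4080 bases, against an effective length of 1413 and 1388 bases behind its TPM, and include the exons of its retained-intron transcripts.

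**Figure D3:**
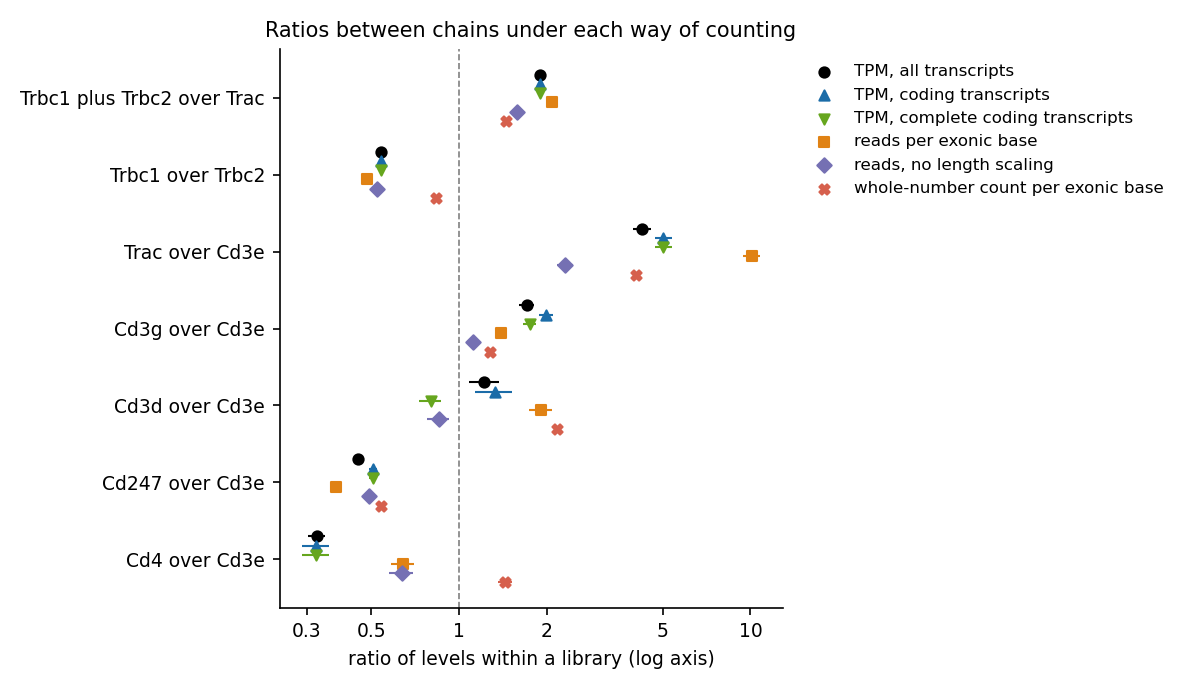
Ratios of levels within a library, on a log axis, for 7 pairs of chains under 6 ways of counting; symbols are means of the 2 libraries, lines join the libraries and the dashed line marks a ratio of 1. Cd3d over Cd3e lies on both sides of 1 (0.800 to 2.17). Cd4 over Cd3e (0.324 to 1.44) is above 1 only in the whole-number table. Trbc1 plus Trbc2 over Trac lies between 1.58 and 2.09 in the other ways of counting. It is 1.45 in the whole-number table, where the constant genes are compressed.

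Cd4 was the most abundant of the coreceptor genes. It was at 181 TPM in library 1 (95% interval 177 to 186) and 243 TPM in library 2 (238 to 249), with a mean of 212 ± 43.8. Cd8b1, which encodes the CD8 beta chain, was at 9.94 TPM (8.53 to 11.5) from 177 reads in library 1 and 14.8 TPM (13.02 to 16.8) from 248 reads in library 2. Cd8a, which encodes the alpha chain, was at 1.43 TPM (1.012 to 1.96) from 38 reads in library 1 and 0.79 TPM (0.483 to 1.22) from 20 reads in library 2. Both CD8 genes were far below Cd4 in both libraries, and in bulk RNA fewer cells of a type and less RNA per cell cannot be told apart. Cd4 over Cd3e was 0.303 and 0.348 (0.326 ± 0.0319), and it was above 1 only in the whole-number table, at 1.36 and 1.52.

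The CD8 beta chain is known to reach the surface only with the alpha chain. Here Cd8b1 was above Cd8a in both libraries. Cd8b1 over Cd8a was 6.95 in library 1 and 18.7 in library 2, and Cd4 over Cd8a 127 and 308, all resting on 38 and 20 reads of Cd8a. Most Cd8a reads were given to Cd8a-203, a retained-intron transcript, with 26.5 of 38 in library 1 and 12.8 of 20 in library 2. The coding transcripts of Cd8a had 11.5 reads in library 1, all on Cd8a-201, and 7.24 in library 2, all on Cd8a-202, with a posterior SD of 5.11 and 2.84 reads. Whether the isoform with the cysteine pair or the one without it was present is therefore not resolved at this depth. The Cd8b1 count had a posterior SD of 0.82 and 0.67 reads. Of its 1434 windows of 50 bases, 90 (6.28%) occur in transcripts of 53 other genes. The other cytotoxic T cell markers, Gzmk, Eomes and Klrk1, lay between 0.03 and 0.87 TPM.

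The Cd4 transcripts differed in share between libraries. Cd4-201 had 5591 of 6043 reads in library 1 and 7547 of 7884 in library 2. The retained-intron transcripts Cd4-202 and Cd4-205 together had 448 reads (7.41%) in library 1 and 309 reads (3.92%) in library 2, and held 17.9% and 10.4% of the gene's TPM. Library 1 thus had fewer Cd4 reads and more of them on retained introns, a difference in share that was not tested.

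Library 1 was set against library 2 for every gene with an exact two-sided binomial test of the estimated reads, which compares these libraries and not a condition. Of the 10 genes, 5 passed an adjusted p of 0.05 (Benjamini-Hochberg over 17271 genes), beside 24.3% of all genes tested. Of these, 1 was higher in library 1, where 11.6% of all genes were, and 4 were lower, where 12.7% were. A gene with more reads passes at a smaller ratio, and these shares cover genes down to 10 summed reads. The median log2 ratio was -0.0023 over the 10 genes and 0.0060 over all genes tested. Ratios of TPM lay slightly lower, with a median log2 of -0.031 over the tested genes, so that Trac, for instance, was lower in library 1 in TPM and higher in its share of reads.

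Cd4 had the largest called change among the members with over 1000 reads. Its 6043 reads in library 1 and 7884 in library 2 gave a log2 ratio of -0.43 (adjusted p = 1.57e-64, exact binomial test). Cd8b1, with 177 and 248 reads, gave -0.53 (adjusted p = 0.00192), so both coreceptor genes with more than 100 reads were lower in library 1. Cd8a went the other way in value, at 0.87 from 38 and 20 reads, and did not pass (adjusted p = 0.107).

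The CD3 chains and the receptor constant genes differed less than Cd4. Cd3e gave -0.16 from 10482 and 11339 reads (adjusted p = 1.07e-13, exact binomial test) and Cd247 -0.08 from 5311 and 5435 reads (adjusted p = 0.0305). Cd247 did not pass with DESeq2 size factors (adjusted p = 0.0801) or without the low-count filter (adjusted p = 0.0519). Cd3d was higher in library 1, at 0.10 from 9706 and 8795 reads (adjusted p = 4.79e-05), a direction that turned to -0.014 in the whole-number table. Cd3g at -0.021, Trac at 0.029, Trbc1 at 0.017 and Trbc2 at 0.016 did not pass, with adjusted p between 0.0897 and 0.543 in the exact binomial test, and Trbc1 was at -0.030 in the whole-number table. Trac passed with DESeq2 size factors, at 0.041 (adjusted p = 0.00912). The size of these ratios was 0.10 for Cd3d and 0.16 for Cd3e, beside a median absolute log2 ratio of 0.099 over the 3045 genes with 2000 summed reads or more.

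The binomial test allows for counting error only. With an assumed dispersion of 0.01 in edgeR's exact test, 0 of the 10 genes passed, beside 2.85% of all genes, and at an unadjusted p below 0.05 there were 2, Cd8b1 (p = 0.0341) and Cd4 (p = 0.0387). Of the 10 genes, 2 passed when the whole-number counts were tested, Cd4 (-0.17, adjusted p = 0.0103) and Cd8b1 (-0.78, adjusted p = 0.00461), beside 9.86% of 11008 genes.

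**Figure D4:**
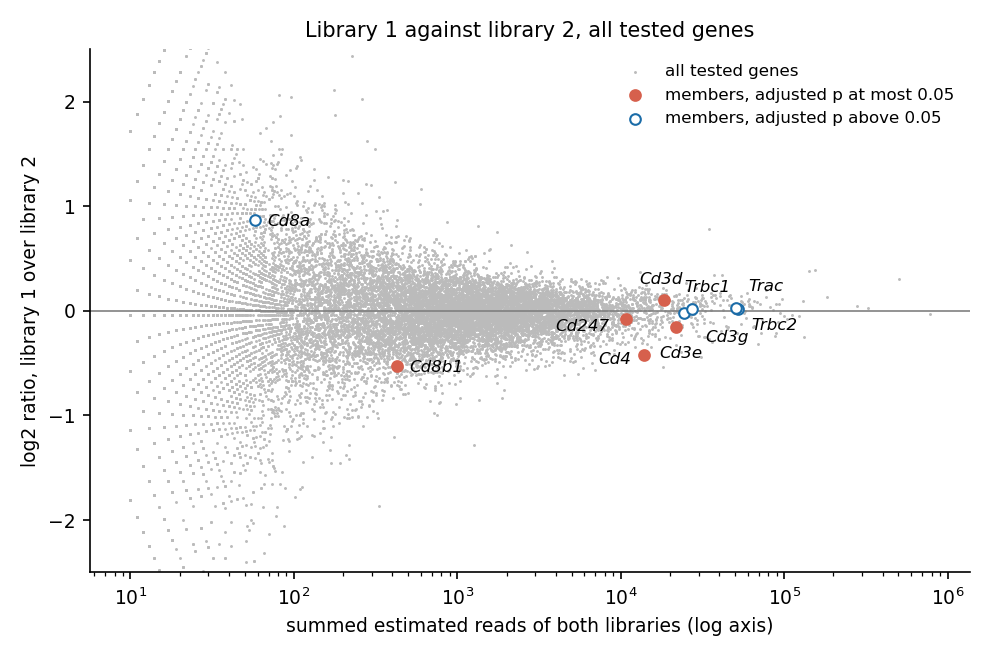
Log2 ratio of library 1 over library 2 against the summed estimated reads (log axis) for all tested genes in grey, with the 10 members marked, filled where the adjusted p is at most 0.05 and with 424 genes beyond the axis limits of 2.5. Cd4 (-0.43) and Cd8b1 (-0.53) lie lowest, Cd8a (0.87) highest from 38 and 20 reads, and the constant genes and Cd3g sit within 0.03 of 0.

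The whole-number table, on GENCODE M4, gave a compressed picture of the same genes. Its values per exonic base use exon lengths of GENCODE M21. Trbc2 had 661 counts in library 1 and 653 in library 2, which was 2.47% and 2.54% of its estimated reads, and Trac had 1124 and 1121 (4.35% and 4.56%). Cd3e, Cd3d and Cd3g had between 1160 and 1242 counts, 10.1% to 13.3% of their reads, and Cd4 had 1621 and 1826 (26.8% and 23.2%). Cd8b1 kept the largest share, at 76 and 131 counts (43.0% and 52.7%). In library 1 the share was thus smallest for Trbc2, with 38.7 estimated reads per exonic base, and largest for Cd8b1, with 0.119. Cd8a had fewer reads per exonic base than Cd8b1 (0.0104 in library 1 and 0.0055 in library 2) and a smaller share, 42.1% and 30.0%. Cd247, with 0.997 reads per exonic base, had 846 counts, 15.9% of its reads.

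Over all genes the median share also fell with reads per exonic base. In library 1 the median whole-number count was 44.1% of estimated reads for the 2980 genes with 0.1 to 0.3 reads per exonic base and 1.25% for the 63 genes with 10 or more. Some members departed from the median of like genes, in either direction. In library 1 Cd247 kept 15.9%, where genes with 0.3 to 1 reads per exonic base had a median of 37.9%. Trac kept 4.35%, above the 1.25% of genes with 10 or more. Among genes of at least 500 exonic bases the highest whole-number count per exonic base was 1.96 in library 1 and 1.95 in library 2, while estimated reads per base reached 146 and 144. Ranked by this table per exonic base, Trac came before Trbc2 and Cd4 before Cd3g and Cd3e, and 7 of the 10 genes changed rank. The sources do not say how the whole-number counts were made, and why they differ was not tested.

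**Figure D5:**
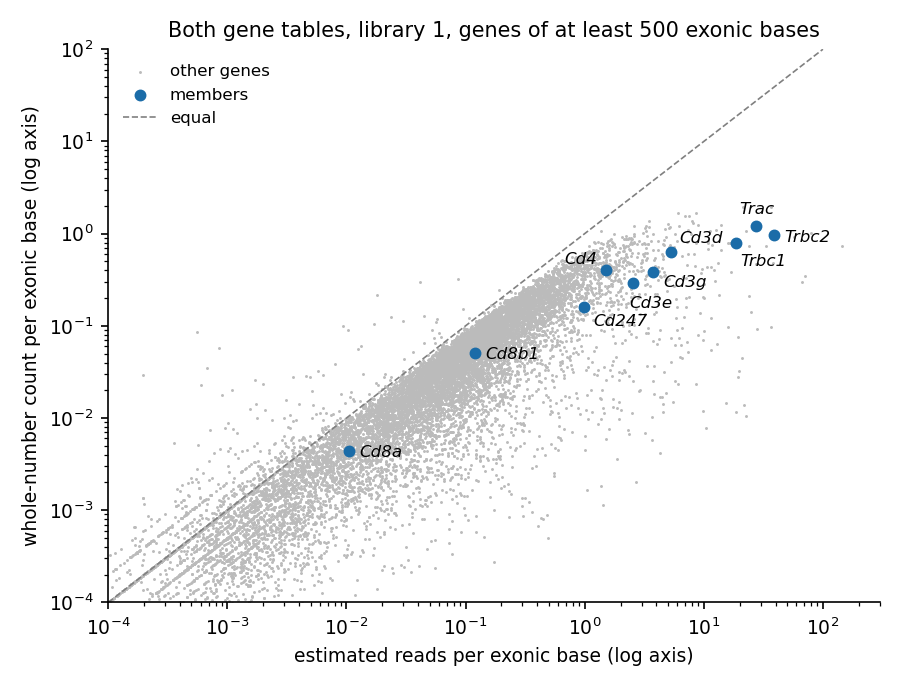
Whole-number count per exonic base against estimated reads per exonic base in library 1, both on log axes, for genes of at least 500 exonic bases with both values above 0 (members in blue, equality dashed). Cd8a and Cd8b1 lie near the bulk of genes, while Trac, Trbc1 and Trbc2, at 18.7 to 38.7 reads per base, stay between 0.786 and 1.20 counts per base.

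Exons of other genes overlap those of Cd247 and Cd3e. Cd247 shares 206 exonic bases with Gm16565 on its own strand, which had 123 and 109 reads. It also shares 3007 with Pou2f1 on the opposite strand, and Pou2f1 had 1028 and 914 reads. Of the 5415 windows of 50 bases over all Cd247 transcripts, 3026 (55.9%) occur in a transcript of Gm16565 or Pou2f1, and in Cd247-201, which held most reads, 149 of 1583 (9.41%) occur in another gene. Cd3e shares 135 exonic bases with the antisense gene Gm48719, which had 24.9 and 11.3 reads. Because the sources do not state whether the libraries keep strand, reads of Cd247 and Pou2f1 in the shared bases, and of Cd3e and Gm48719, cannot be assigned by strand. No window of Cd3g, Trac or Cd4 occurred in a transcript of another gene.

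The molecules that act directly on the receptor were expressed with it. Of 35 genes of proximal receptor signalling, 34 were at 10 TPM or more and 17 at 100 TPM or more. Lck, which phosphorylates the ITAMs, was at 984 TPM in library 1 and 1162 TPM in library 2, so above Cd4 by 5.43-fold and 4.78-fold. Zap70, the kinase that binds phosphorylated ITAMs, was at 129 and 168 TPM, against 0.48 and 0.55 TPM for its relative Syk, the lowest of the list. Lat, the scaffold that Zap70 phosphorylates, was at 593 and 734 TPM, or 0.991 and 1.05 times Cd3e. Cd2, an adhesion receptor that aids signalling, was the highest of the list at 1160 and 1238 TPM.

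Of these 35 genes, 16 were lower and 2 higher in library 1, beside 12.7% and 11.6% of all genes, and their median log2 ratio was -0.074. The shares over all genes include genes of far fewer reads, which pass less readily, and none is given for genes of like depth. The same direction as Cd4 was called for Lck (-0.15), Zap70 (-0.34), Lat (-0.25), Cd5 (-0.22) and Cd6 (-0.39), the last a surface receptor that restrains or modulates receptor signals like Cd5. Trat1, an adaptor that associates with the receptor complex, went the other way (0.23), as did Cbl (0.18), a ubiquitin ligase.

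The delta and gamma constant genes, Ptcra and Fcer1g, which can stand in for members, were low. The delta constant gene Trdc was at 1.56 and 1.53 TPM and the gamma constant gene Tcrg-C1 at 16.8 and 17.2 TPM, so Trac exceeded Trdc 1749-fold and 1804-fold. Reads of the gamma constant genes may be split among near-identical copies. Ptcra, the surrogate alpha chain of immature thymocytes, was at 0.13 and 0.07 TPM from 2.02 and 1 reads. Of the other adaptors with an ITAM, Fcer1g, which can pair with or replace the zeta chain, was at 1.29 and 1.23 TPM, against 280 and 302 TPM for Cd247. Tyrobp was at 0.31 and 1.14 TPM, and the B cell receptor chain Cd79b at 36.3 and 40.7 TPM, with its partner Cd79a at 1.26 and 1.7 TPM. Hcst, an adaptor with a different tyrosine motif, was at 478 and 468 TPM.

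Regulators of coreceptor choice were measured beside Cd4 and the CD8 genes. Zbtb7b, the factor that commits thymocytes to the CD4 lineage, was at 9.98 TPM in library 1 and 10.5 TPM in library 2. Runx3, which silences Cd4 and activates Cd8 in the CD8 lineage, was at 13.3 and 14.2 TPM, 1.33-fold and 1.35-fold above Zbtb7b, and neither factor passed the test between libraries. Gata3, needed for CD4 T cell development, was at 90.4 and 104 TPM. Of the 16 regulators, 14 were at 10 TPM or more, with Ets1 highest at 547 and 652 TPM and Tcf3 lowest at 8.12 and 7.82 TPM. Between libraries 3 were higher and 4 lower in library 1, beside 11.6% and 12.7% of all genes, with a median log2 ratio of -0.018. Lag3, a relative of CD4 that also binds MHC class II, was at 17.8 and 17.3 TPM, so Cd4 exceeded it 10.2-fold and 14.1-fold. Of the MHC genes themselves, B2m was at 6786 and 6524 TPM and the class II gene H2-Ab1 at 2.78 and 4.05 TPM.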

How the data were processed

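Both libraries hold polyadenylated RNA, and the labels make them technical replicates 1 and 2 of biological replicate 1. On mm10 with GENCODE M21, the authors deposited an expected count, TPM and FPKM per gene and transcript, and an isoform percent per transcript, per the file headers. A deposited whole-number count per gene used GENCODE M4. The sources do not name the quantification tools. Rows that name no gene held 0.142% of reads in library 1 and 0.186% in library 2 and entered neither library sizes nor tests.

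Levels were TPM as deposited, and ratios were taken within a library. Expected counts were rounded, and genes with a summed count of 10 or more were tested by an exact binomial test against library 1's share of all gene reads (50.7%), with Benjamini-Hochberg adjustment at 0.05. Log2 ratios add 0.5 to each count. Poisson intervals (95%) and limits of 3 reads cover counting error only, since PCR copies are not independent molecules. The test was tried on simulated Poisson counts, which hold counting error only, as the test assumes. That trial does not show how the test behaves on libraries that differ by more than counting error. Alternatives used FPKM, coding transcripts, merged exon lengths, unscaled reads, the whole-number table, TMM (edgeR 4.0.16), DESeq2 1.42.0 size factors, no low-count filter, a pseudocount of 1 and edgeR's exact test (R 4.3.3). Sums over complete coding transcripts were added after seeing the data. They kept all transcripts of the constant genes, including those annotated with an incomplete end. Sequences, overlaps and windows came from GENCODE M21, using scipy 1.17.1, numpy 2.4.6 and pandas 2.3.3 in Python 3.11.15. All 10 members are described, and any gene of 17 lists could be named, at least the highest and lowest of each list by mean TPM, except 1 gene that is not reported here. Members and lists were chosen with earlier results of these data known.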

Additional observations from a re-analysis of the deposited data

How the results depend on the processing

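The number of genes at 100 TPM or more was 8 under every alternative. With complete coding transcripts, all transcripts of the constant genes were kept. From 1 library alone, Cd8b1 over Cd8a was 6.95 or 18.7 and Cd4 over Cd8a 127 or 308, beside means of 12.8 and 217. Ratios moved with the transcripts and lengths counted. With coding transcripts only, Cd3g over Cd3e was 1.99, and with complete coding transcripts Cd3d over Cd3e turned to 0.800; under both, Cd247 over Cd3e was 0.506, Trac over Cd3e 5.03, Cd4 over Cd8a 747 and Cd8b1 over Cd8a 51.8. Per base of merged exons the ratios to Cd3e were 1.40 for Cd3g, 1.91 for Cd3d, 0.377 for Cd247, 10.1 for Trac and 0.643 for Cd4, with Trbc1 plus Trbc2 over Trac at 2.09 and Trbc1 over Trbc2 at 0.482. With unscaled reads they were 1.12, 0.851 (turned), 0.493, 2.32 and 0.636, with 1.58 and 0.522 for the constant genes. In the whole-number table Cd3g over Cd3e was 1.28, Cd3d over Cd3e 2.17, Cd247 over Cd3e 0.538, Cd4 over Cd3e 1.44 (turned), Trbc1 plus Trbc2 over Trac 1.45, Trbc1 over Trbc2 0.837 and Cd8b1 over Cd8a 32.6. Against the order by TPM, 2 genes changed rank with complete coding transcripts, 4 per base of merged exons and 7 in the whole-number table. Library calls were 4198 genes and 5 members in the binomial test, 492 and 0 with edgeR's exact test at a dispersion of 0.01, and 1085 and 2 in the whole-number table, where Cd3d (-0.014) and Trbc1 (-0.030) also changed sign; TMM sizes and a pseudocount of 1 called the same 5 members. With DESeq2 sizes 4 of them passed, without Cd247 (adjusted p = 0.0801), and Trac did (0.041, adjusted p = 0.00912); without the low-count filter Cd247 did not pass (adjusted p = 0.0519). The cause of these shifts was not tested beyond the lengths and transcripts named. No paired analysis was possible because there is 1 group of 2 technical libraries. Depth limits Cd8a above all, with 38 and 20 reads.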
